A study of Spodoptera frugiperda with 3 samples.

Results

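Enzymes of the ubiquitin system were examined in whole larvae of the fall armyworm *Spodoptera frugiperda*, a noctuid moth, held at low or high temperature. Members were the unigenes whose NR protein hit carried ubiquitin, F-box, cullin, SUMO, NEDD8, von Hippel-Lindau or SINAT in its description, leaving out proteasome subunits, ribosomal proteins and histones. This gave 90 unigenes of the 30327 that appear in at least 1 of the 3 deposited tables. Larvae spent 16 h in the cold at 4 °C (T4) or in the heat at 40 °C (T40), and control larvae were kept at 25 °C (T25) for a duration that is not stated. The study gives the instar as the fourth at treatment and the fifth where it describes RNA isolation, which was from the whole body. The larvae came from a commercial colony and were reared at the same temperature on the same artificial diet before treatment. Each temperature has 1 library of 5 pooled larvae. No difference below could therefore be set against the spread between larvae or libraries, and no test was run.

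Each table holds a pair of libraries (T4/T25, T40/T25 or T40/T4) and lists only unigenes past a P and fold limit, with the smallest listed difference at 2.35-fold in all 3 tables. This is a looser limit than the log2 fold change and adjusted P by which the study's text defines differentially expressed genes, so many listed unigenes would not count as such there. A member is called higher or lower below where it is listed, and at 4-fold (a log2 ratio of 2) or more 7 members were higher and 8 lower in T4/T25, 12 and 26 in T40/T25, and 7 and 7 in T40/T4. The 4-fold limit was not applied to all listed unigenes, so these counts have no background share and are not read as a trait of the members. A library in which a member was in no table has no value for it, and an unlisted member was not shown to be unchanged. Folds are ratios of read counts divided by effective library sizes, which were 36483914 in T4, 28015943 in T25 and 38643842 in T40, with a 95% exact interval (Clopper-Pearson) that covers counting error only. The listed unigenes together hold 16678975 reads of T25, 24403584 of T4 and 21560373 of T40. T25 enters both the cold and the heat comparison, so the T4/T25 and T40/T25 values are not independent of each other.

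Ubiquitin is a small protein that cells attach to other proteins through a relay of enzymes. An E1 activates the modifier with ATP, an E2 carries it, and an E3 ligase selects the substrate. Chains of ubiquitin often send a protein to the proteasome, while SUMO, NEDD8 and UFM1 are relatives with E1, E2 and E3 enzymes of their own. Deubiquitinases remove the tag or trim the chains. In heat-stressed eukaryotic cells, the system is known for clearing unfolded proteins and for a wave of conjugation to SUMO.

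The 90 unigenes comprised 4 E1, 6 E2, 56 E3 ligases or ligase subunits (10 of them F-box proteins), 16 deubiquitinases, 4 modifiers or ubiquitin-like proteins and 4 adaptors and other proteins. The desumoylating isopeptidase DeSI2, which acts on SUMO, is counted among the deubiquitinases. By name, 5 were assigned to SUMO, 3 to UFM1 and 2 to NEDD8. The other 80 were grouped under ubiquitin as the remainder, which also holds ubiquitin-like proteins and names that carry no modifier, such as cullin-2. The best NR hit was in *Spodoptera litura* for 80 of them. A Pfam domain was recorded for 76. The UniProt or KEGG description also named the system for 86. They carry 75 distinct protein names, because 8 proteins were represented by several unigenes, 23 unigenes in all. Unigenes are contigs of a de novo assembly without genome coordinates, so several may be pieces of 1 transcript, and close paralogs may share reads. None of the 90 was annotated as the ubiquitin E1 UBA1, the SUMO E2 UBC9 or polyubiquitin, so these steps of the relay were not analysed here. A value was available in T4 for 66 members, in T25 for 81, in T40 for 79 and in all 3 libraries for 46. 44 members were listed in 1 table, 41 in 2 tables and 5 in all 3.

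Most listed ligases and deubiquitinases were lower at 40 °C than at 25 °C, while the described enzymes that attach SUMO and UFM1 were higher. In T40/T25, 66 members were listed, 20 of them higher and 46 lower. Among all 30327 unigenes, 31.2% were listed as higher in this comparison and 35.0% as lower. Among the 8310 with an NR hit, these shares were 39.5% and 34.2%. The median log2 ratio of the listed members was -1.53, beside -1.51 over all listed unigenes and 1.40 over those with an NR hit. In T4/T25, 38 members were listed, 9 higher and 29 lower, with a median log2 ratio of -1.57. All listed unigenes of that comparison had a median of 1.58, and those with an NR hit had -1.25. Of the 30327 unigenes, 22.1% were listed as higher there and 18.0% as lower, and of the 8310 with an NR hit 20.3% and 20.8%. In T40/T4, which leaves out the control, 25 members were higher and 12 lower, with a median of 1.42. The background there was 28.3% higher and 34.0% lower over all unigenes and 37.4% and 28.7% over those with an NR hit, with medians of -1.59 over all listed unigenes and 1.45 over those with an NR hit. RNA came from the whole body, so fewer cells of a type and less RNA per cell cannot be told apart in any of these values.

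**Figure D1:**
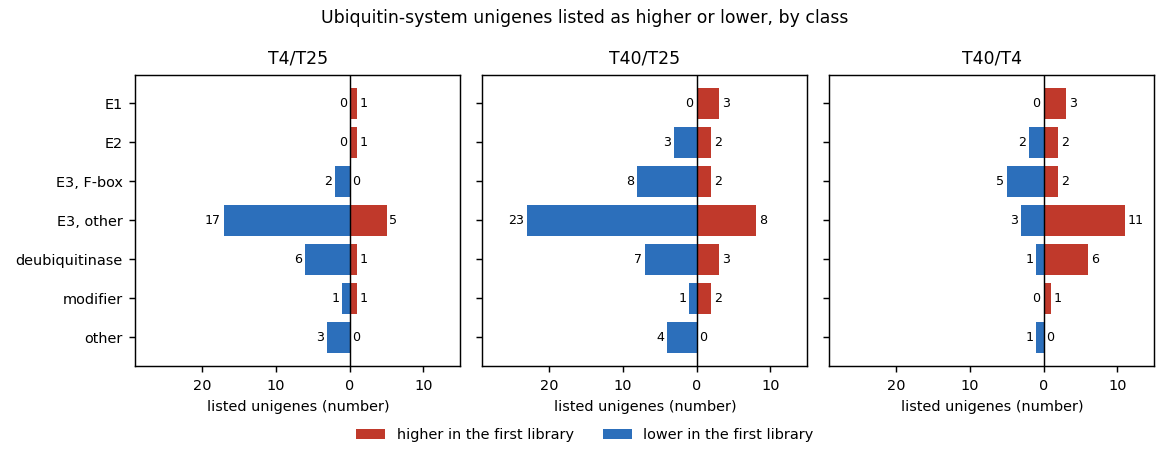
Number of listed ubiquitin-system unigenes that were higher (red, to the right) or lower (blue, to the left) in the first-named library of each comparison, by class. Ligases other than F-box proteins make up most of the members, with 23 lower and 8 higher in T40/T25, 17 lower and 5 higher in T4/T25, and 3 lower and 11 higher in T40/T4.

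The 3 enzyme classes are given here by their counts, which were not tested against each other. Of the E1 and E2 enzymes together, 5 were higher and 3 lower in T40/T25, 2 higher and 0 lower in T4/T25, and 5 higher and 2 lower in T40/T4. Of the E3 unigenes, 10 were higher and 31 lower in T40/T25, 5 and 19 in T4/T25, and 13 and 8 in T40/T4. Of the deubiquitinases, 3 were higher and 7 lower in T40/T25, 1 and 6 in T4/T25, and 6 and 1 in T40/T4. DeSI2 is among the lower ones in T40/T25 and in T4/T25. The median log2 ratio in T40/T25 was 1.68 for E1 and E2 enzymes, -1.59 for E3 unigenes and -1.64 for deubiquitinases. The members were also grouped by modifier, a grouping chosen after the values were seen. Those assigned to SUMO, NEDD8 or UFM1 numbered 7 higher and 2 lower in T40/T25. The remainder, grouped under ubiquitin, numbered 13 higher and 44 lower.

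Of the 46 members with a value in every library, 25 were highest in T25, 19 in T40 and 2 in T4 by reads over effective library size. The order T25, T4, T40 from high to low was the most frequent, in 23 members, followed by T40, T4, T25 in 13. Among the 27 E3 unigenes of this kind, 17 were highest in T25 and 9 in T40. Among the 7 E1 and E2 enzymes, 5 were highest in T40. All 46 were listed in at least 2 comparisons (41 in 2 and 5 in all 3), because a single listing leaves 1 library without a value. Where the library shared by 2 listings was higher, or lower, in both, the listing itself put it at 1 end of the order. These orders therefore follow in part from the listing and do not describe other unigenes. They were not counted over all listed unigenes.

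**Figure D2:**
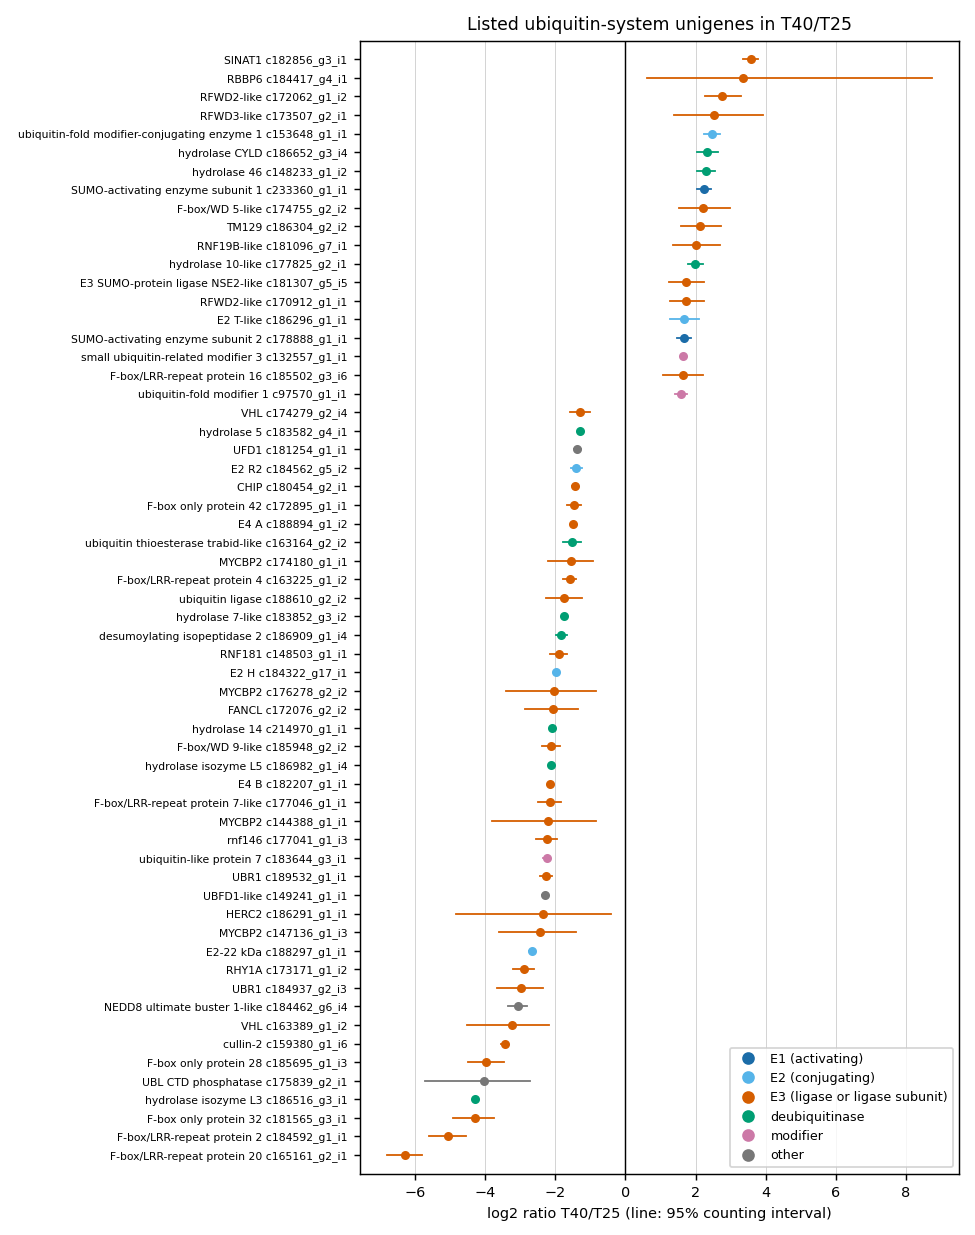
Log2 ratio T40/T25 of 60 of the 66 listed members, coloured by class, with lines for the 95% counting interval. The 19 drawn above 0 run from 1.59 to 3.57 and include SAE1, SAE2 and both modifiers of the SUMO and UFM1 routes, while the 41 below 0 run from -1.29 to -6.27 and end in the F-box protein FBXL20.

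Members that attach SUMO or UFM1, and the modifiers themselves, were higher in T40 than in T25. The 6 described here were the modifiers SUMO3 and UFM1, the SUMO E1 subunits SAE1 and SAE2, the UFM1 E2 UFC1 and the SUMO ligase NSE2. All 6 were listed as higher in T40/T25, with log2 ratios from 1.59 to 2.47, and 4 were listed as higher in T40/T4. SUMO3 (c132557_g1_i1), a modifier of nuclear proteins, had 1731 reads in T25 and 7481 in T40, and no value in T4. It was 3.13-fold higher in T40 than in T25 (95% interval 2.97 to 3.30) and reached an FPKM of 158, above every other member except UCHL3. SAE1 (c233360_g1_i1), which forms the SUMO E1 together with SAE2, had 504 reads in T4, 238 in T25 and 1549 in T40. SAE2 (c178888_g1_i1), the catalytic partner, had 308 reads in T4, 253 in T25 and 1115 in T40. Both subunits were thus highest in T40, SAE1 by 4.72-fold over T25 (4.11 to 5.43) and SAE2 by 3.20-fold (2.78 to 3.68). Neither was listed in T4/T25, where the ratios were 1.63-fold higher and 1.07-fold lower. NSE2 (c181307_g5_i5), a SUMO ligase of the SMC5-SMC6 DNA repair complex, had 159 reads in T4, 42 in T25 and 193 in T40, at FPKM values of 1.45 to 5.25. It was listed as higher in both treated libraries, by 2.91-fold in T4/T25 (2.06 to 4.19) and 3.33-fold in T40/T25 (2.38 to 4.77).

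UFM1 modifies ribosomes and other proteins at the endoplasmic reticulum, and its members had the same direction at 40 °C. UFC1 (c153648_g1_i1), the E2 of this route, had 347 reads in T4, 189 in T25 and 1445 in T40, and was 5.54-fold higher in T40/T25 (4.76 to 6.48). UFM1 itself (c97570_g1_i1) had 444 reads in T4, 332 in T25 and 1376 in T40. It was 3.0-fold higher in T40/T25 (2.66 to 3.4), while T4 and T25 differed by 1.03-fold with an interval from 0.889 to 1.19. UFL1, the ligase of the route, has no ubiquitin in its description and is not among the 90, but a unigene annotated as its homolog (c185839_g1_i1) had 970 reads in T4, 845 in T25 and 4430 in T40 and was listed as higher at 40 °C.

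Members that handle NEDD8, the modifier that activates cullin ligases, were few. The catalytic subunit of the NEDD8 E1 (c178065_g1_i3) had 246 reads in T4 and 747 in T40, 2.87-fold higher (2.48 to 3.32), and no value in T25. NUB1 (c184462_g6_i4), which in mammals directs NEDD8 and its conjugates to the proteasome, had 383 reads in T4, 876 in T25 and 144 in T40. NUB1 was listed in all 3 tables, and its libraries ran in the order T25, T4, T40, with T40 8.39-fold lower than T25 (7.03 to 10.1). The desumoylating isopeptidase DeSI2 (c186909_g1_i4), which removes SUMO, had 527 reads in T4, 1365 in T25 and 532 in T40. It was 3.37-fold lower in T4/T25 (3.05 to 3.74) and 3.54-fold lower in T40/T25 (3.20 to 3.92), opposite in direction to the enzymes that attach SUMO in T40/T25.

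**Figure D3:**
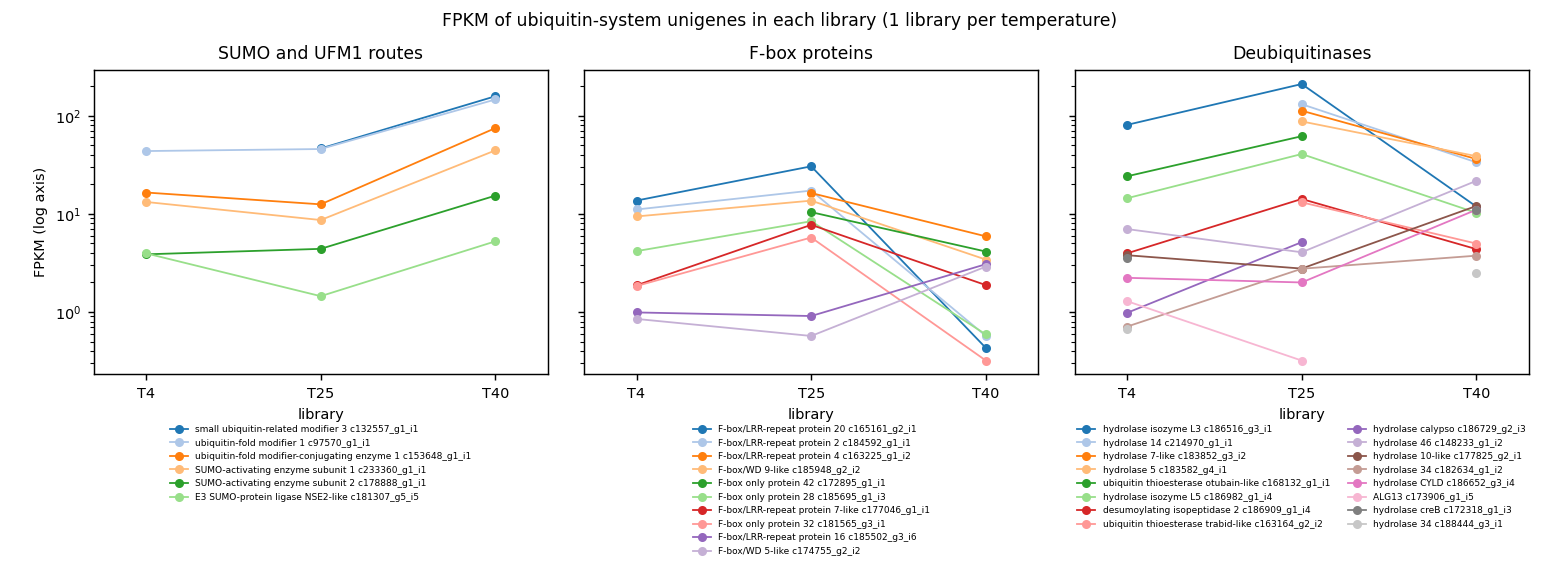
FPKM (log axis) of SUMO3, UFM1, SAE1, SAE2, UFC1 and NSE2, of the F-box proteins and of the deubiquitinases in the T4, T25 and T40 libraries, 1 point per unigene and library and lines between neighbouring libraries with a value. All 6 unigenes of the first panel are higher in T40 than in T25, and 8 of 10 F-box proteins are lower. The deubiquitinases, with DeSI2 counted among them, divide into 7 lower and 3 higher among those listed.

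Of the E2 enzymes that carry ubiquitin itself, the 3 with the highest FPKM in T25 were lower in T40/T25, and UBE2T, with an FPKM of 2.78, was higher. UBE2H (c184322_g17_i1), which works with the multi-subunit CTLH ligase in mammals, had 11609 reads in T25 and 4081 in T40, and was 3.92-fold lower (3.79 to 4.07). The E2 of 22 kDa (c188297_g1_i1), which carries the name of the fly enzyme UbcD4, had 6094 reads in T4, 9590 in T25 and 2068 in T40. It was 6.40-fold lower in T40/T25 (6.10 to 6.71) and 3.12-fold lower in T40/T4 (2.97 to 3.28), and was not listed in T4/T25, where it was 2.05-fold lower. UBE2R2 (c184562_g5_i2), an E2 that extends chains on cullin ligase substrates, had 969 reads in T25 and 508 in T40, 2.63-fold lower (2.36 to 2.94). UBE2T (c186296_g1_i1), the E2 of the Fanconi anaemia DNA repair pathway, had 52 reads in T4, 61 in T25 and 269 in T40. UBE2T was thus the only E2 for ubiquitin listed as higher in T40/T25, by 3.20-fold (2.41 to 4.29). Its FPKM in T40 was 9.64, below those of UBE2H (19.7) and the E2 of 22 kDa (12.7) and above that of UBE2R2 (4.48). FANCL (c172076_g2_i2), the ligase that works with UBE2T, had 27 reads in T4, 64 in T25 and 21 in T40, and was lower in both treated libraries. An E2Q-like unigene (c144888_g2_i1) had 23 reads in T4, 4 in T25 and 2 in T40, counts at which the interval of its T4/T25 ratio ran from 1.51 to 17.6.

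Among the ligases, the highest ratio in T40/T25 belonged to SINAT1 (c182856_g3_i1), an E3 of the seven-in-absentia family, whose fly founder degrades a repressor in eye development. It had 926 reads in T4, 190 in T25 and 3114 in T40. SINAT1 was listed in all 3 tables and T25 was its low library, with T4 3.74-fold higher (3.20 to 4.40), T40 11.9-fold higher (10.3 to 13.8) and T40 above T4 by 3.17-fold (2.95 to 3.42). Another unigene of the family, SIAH2 (c181972_g1_i2), had 282 reads in T4 and 736 in T40 and was 2.46-fold higher in T40/T4 (2.15 to 2.84), with no value in T25. TM129 (c186304_g2_i2), a ligase of the endoplasmic reticulum membrane, had 342 reads in T4, 31 in T25 and 188 in T40. It was 8.47-fold higher in T4/T25 (5.86 to 12.7) and 4.40-fold higher in T40/T25 (3.0 to 6.65), and T4 was its high library.

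RFWD2, also named COP1, a ligase that targets transcription factors in plants and mammals, was represented by 2 unigenes with the same direction. The first (c172062_g1_i2) had 66 reads in T4, 36 in T25 and 337 in T40. The other (c170912_g1_i1) had 43 reads in T4, 44 in T25 and 202 in T40. They were 6.79-fold (4.80 to 9.86) and 3.33-fold (2.39 to 4.72) higher in T40/T25, and neither was listed in T4/T25. RFWD3 (c173507_g2_i1), a ligase of DNA repair, had 18 reads in T4, 7 in T25 and 56 in T40 and was also higher at 40 °C in both comparisons. RNF19B, a ligase of the RBR type, had 23 reads in T25 and 127 in T40 in 1 unigene (c181096_g7_i1) and 12 in T4 and 70 in T40 in the other (c116236_g1_i2), higher in T40 each time. RBBP6 (c184417_g4_i1), a ligase linked to messenger RNA processing, had 1 read in T25 and 14 in T40, for a ratio of 10.1 with a counting interval from 1.54 to 429.

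UBE4B, UBE4A, CHIP and UBR1, ligases with known roles in protein quality control, were lower wherever they were listed against T25, whereas the endoplasmic reticulum ligase TM129 was higher in both comparisons. UBE4B (c182207_g1_i1), a chain elongation factor of the U-box type, had 4468 reads in T4, 11465 in T25 and 3581 in T40. Its relative UBE4A (c188894_g1_i2) had 1184 reads in T4, 4583 in T25 and 2266 in T40. T25 was the high library of both, UBE4B being 3.34-fold lower in T4/T25 (3.23 to 3.46) and 4.42-fold lower in T40/T25 (4.25 to 4.59), and UBE4A 5.04-fold (4.73 to 5.38) and 2.79-fold lower (2.65 to 2.94). CHIP (c180454_g2_i1), the U-box ligase that binds the chaperones HSP70 and HSP90, had 2770 reads in T25 and 1409 in T40, 2.71-fold lower (2.54 to 2.89). UBR1, a ligase of the N-degron pathway, was represented by 2 unigenes. The first (c189532_g1_i1) had 662 reads in T4, 1213 in T25 and 350 in T40, and the other (c184937_g2_i3) had 115, 143 and 25. In T40/T25 they were 4.78-fold (4.24 to 5.40) and 7.89-fold lower (5.13 to 12.6), with overlapping counting intervals. ZNF598 (c182484_g1_i1) and listerin (c74230_g1_i1), which act on stalled ribosomes, had no value in T25 and were listed as higher in T40/T4, with 285 reads in T4 and 736 in T40 for ZNF598 and 35 and 98 for listerin.

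MYCBP2, known in flies as highwire and for its role at neuromuscular synapses, was split over 6 unigenes with 10 to 68 reads in T25. It was listed as lower wherever it was listed, by log2 ratios from -1.66 to -3.70 in T4/T25 (3 unigenes) and from -1.55 to -2.43 in T40/T25 (4 unigenes). The neuron marker list of 7 unigenes had 2 listed in T40/T25, with 1 higher and 1 lower, and its part in the MYCBP2 values was not tested.

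A further 3 RING ligases were lower in both treated libraries. RHY1A (c173171_g1_i2) had 190 reads in T4, 603 in T25 and 112 in T40, and was 4.13-fold lower in T4/T25 (3.51 to 4.89) and 7.43-fold lower in T40/T25 (6.06 to 9.17). RNF181 (c148503_g1_i1) had 174, 485 and 179 reads in T4, T25 and T40. RNF146 (c177041_g1_i3), which recognises poly(ADP-ribose) on its substrates, had 193, 435 and 127. In all 3 genes T25 was the high library, and none was listed in T40/T4. UHRF1 (c165309_g1_i2), a ligase that binds methylated DNA, differed from them with 22 reads in T4, 62 in T25 and 117 in T40, lower in T4/T25 by 3.67-fold (2.22 to 6.27) and higher in T40/T4 by 5.02-fold (3.16 to 8.32). Ubr3 (c187277_g1_i2) had the same order, with 202, 388 and 575 reads. Neither was listed in T40/T25. RING1 (c177914_g3_i2), a Polycomb ligase, had 121 reads in T4 and 18 in T25 and was 5.16-fold higher in T4/T25 (3.13 to 9.0). A further group of ligases was listed in 1 table each. CBL-B-B, which damps receptor tyrosine kinases, and Hakai, which was found through E-cadherin, were 3.26-fold (2.37 to 4.52) and 2.58-fold lower (2.0 to 3.33) in T4/T25, and HECW2 was higher there on 18 reads in T4 and 2 in T25. In T40/T25, HERC2 was lower on 11 reads in T25 and 3 in T40, and a partial ligase that UniProt names TRIM37 was 3.33-fold lower (2.36 to 4.77). The mitochondrial ligase MUL1 had 312 reads in T4 and 853 in T40 and was 2.58-fold higher in T40/T4 (2.26 to 2.95).

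Cullin-2 (c159380_g1_i6), the scaffold of the ligase in which the von Hippel-Lindau protein (VHL) recognises substrates, was listed as lower in all 3 tables. It had 3237 reads in T4, 8488 in T25 and 1074 in T40. The libraries ran in the order T25, T4, T40, with T4 3.41-fold lower than T25 (3.28 to 3.56), T40 10.9-fold lower than T25 (10.2 to 11.6) and T40 3.19-fold lower than T4 (2.98 to 3.42). Its FPKM of 92.3 in T25 was the highest of the E3 class in that library. VHL itself, which in animals binds the hydroxylated hypoxia-inducible factor, was annotated for 3 unigenes with the VHL Pfam domain. The first (c163389_g1_i2) had 16 reads in T4, 55 in T25 and 8 in T40 and was 4.48-fold lower in T4/T25 (2.53 to 8.37) and 9.48-fold lower in T40/T25 (4.49 to 23.1). The next (c174279_g2_i4) had 297 reads in T25 and 167 in T40, 2.45-fold lower (2.02 to 2.98). The last (c179368_g2_i1) had 455 reads in T4 and 188 in T40, 2.56-fold lower in T40/T4 (2.16 to 3.05). All 3 VHL unigenes were therefore lower at 40 °C in each comparison that listed them. The paper's discussion instead gives VHL, beside a ubiquitin-conjugating enzyme E2, as raised after heat exposure. It names no unigene there, so its statement could not be matched to any of these 3.

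F-box proteins bind substrates for the SKP1-cullin ligases, and the 3 lowest ratios in T40/T25 among the 90 members belonged to them. All 10 were listed in T40/T25, 8 lower and 2 higher, with a median log2 ratio of -2.14. FBXL20 (c165161_g2_i1), which in mammals regulates a protein of synaptic vesicle release, had 1252 reads in T4, 2021 in T25 and 36 in T40. FBXL2 (c184592_g1_i1), by its NR name a membrane-anchored relative, had 685 reads in T4, 771 in T25 and 32 in T40. The UniProt hit of this unigene was F-box/LRR-repeat protein 12 instead. T40 was the lowest library for FBXL20 and FBXL2, 77.4-fold (55.7 to 111) and 33.2-fold lower than T25 (23.3 to 48.9). Neither was listed in T4/T25, where FBXL20 was 2.10-fold lower (1.96 to 2.26) and FBXL2 1.47-fold lower (1.32 to 1.63). FBXO32 (c181565_g3_i1), known in mammals as the muscle atrophy ligase atrogin-1, had 177 reads in T4, 399 in T25 and 28 in T40 and was listed in all 3 tables, 19.7-fold lower in T40/T25 (13.4 to 30.0). FBXO28 (c185695_g1_i3) had 280, 408 and 36 reads and was 15.6-fold lower in T40/T25 (11.1 to 22.6).

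The other F-box unigenes lower in T40/T25 were FBXL7, FBXW9, FBXL4 and FBXO42, by 2.75- to 4.47-fold. FBXL7 (c177046_g1_i1), known in flies for a role in tissue growth, had 116 reads in T4, 347 in T25 and 107 in T40, so that both treated libraries were low. FBXL7 is the NR name of this unigene, and its UniProt hit was F-box/LRR-repeat protein 5. The 2 F-box unigenes that were higher had the lower levels in T25, at FPKM values of 0.57 (FBXW5) and 0.91 (FBXL16). FBXW5 (c174755_g2_i2) had 41 reads in T4, 20 in T25 and 128 in T40, and FBXL16 (c185502_g3_i6) had 51, 34 and 145, 4.64-fold (2.88 to 7.85) and 3.09-fold higher (2.12 to 4.63) in T40/T25. SKP2 (c186364_g1_i1), an F-box protein of the cell cycle whose description holds no F-box and which is therefore not among the 90, had 25 reads in T4, 4 in T25 and 103 in T40. In the same comparison 16 of 24 listed muscle marker unigenes were lower and 8 higher, and their summed level was 7858 CPM (reads scaled to the effective library size) in T40 and 49662 in T25. The part of muscle content in the FBXO32 and other F-box values was not tested.

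**Figure D4:**
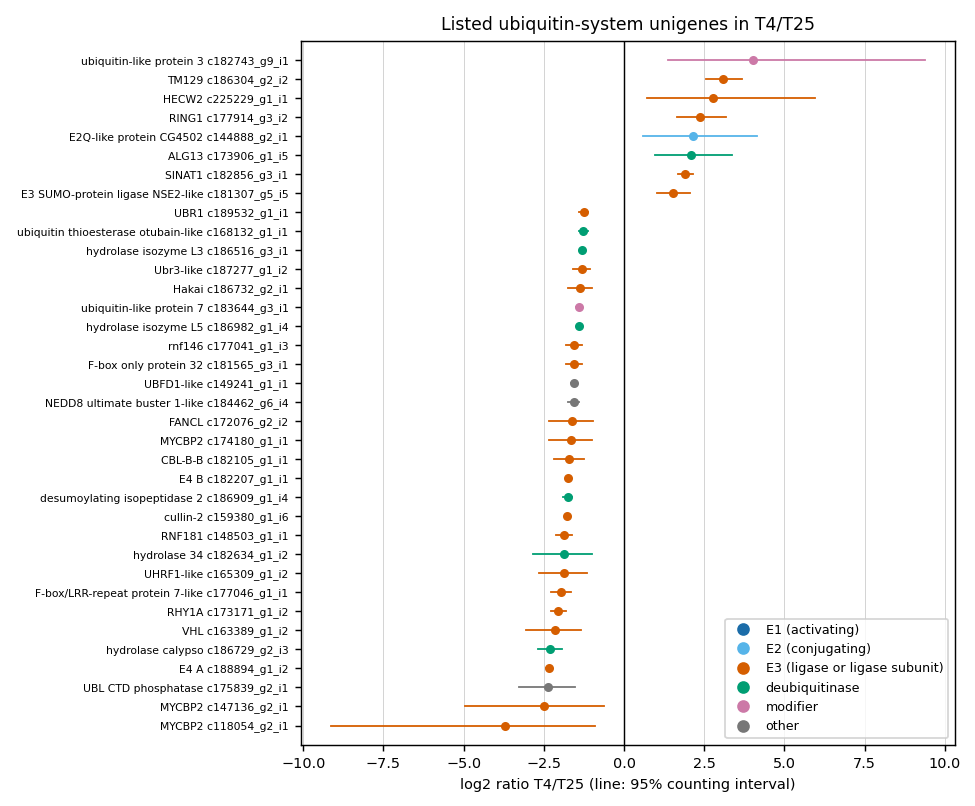
Log2 ratio T4/T25 of 36 of the 38 listed members, coloured by class, with lines for the 95% counting interval. The 8 drawn above 0 run from 1.54 to 4.01 and include SINAT1 and TM129, and the 28 below 0 run from -1.25 to -3.70, of which 18 are E3 unigenes and 6 deubiquitinases.

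Deubiquitinases supplied 4 of the 10 members with the highest FPKM, and these 4 were lower in T40/T25. UCHL3 (c186516_g3_i1), a small hydrolase of the UCH family that frees ubiquitin and NEDD8 from short adducts, had 10125 reads in T4, 19104 in T25 and 1362 in T40, and its FPKM of 210 in T25 was the highest level among the 90. It was listed in all 3 tables in the order T25, T4, T40, with T4 2.46-fold lower than T25 (2.40 to 2.52), T40 19.3-fold lower than T25 (18.3 to 20.5) and T40 7.87-fold lower than T4 (7.44 to 8.34). UCHL5 (c186982_g1_i4), a hydrolase bound to the proteasome, had 3073 reads in T4, 6278 in T25 and 1994 in T40, and was 4.34-fold lower in T40/T25 (4.13 to 4.57). USP14 (c214970_g1_i1), another deubiquitinase known to sit on the proteasome, had 13896 reads in T25 and 4487 in T40, 4.27-fold lower (4.13 to 4.42). UCHL5 and USP14 thus had nearly the same ratio in T40/T25. USP7 (c183852_g3_i2), which stabilises many nuclear proteins, had 21773 reads in T25 and 8847 in T40, 3.39-fold lower (3.31 to 3.48). USP5 (c183582_g4_i1), which takes apart free ubiquitin chains, had 8407 reads in T25 and 4700 in T40, 2.47-fold lower (2.38 to 2.56). Trabid (c163164_g2_i2), of the OTU family, had 388 and 187 reads.

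The 3 deubiquitinases that were higher in T40/T25 had lower levels in T25, with FPKM values of 2.0 to 4.06. USP46 (c148233_g1_i2), which acts on glutamate receptors in nematodes, had 341 reads in T4, 143 in T25 and 969 in T40. USP10 (c177825_g2_i1), a binding partner of stress granule proteins, had 419 reads in T4, 222 in T25 and 1217 in T40. CYLD (c186652_g3_i4), which limits NF-κB and immune signalling in mammals, had 157 reads in T4, 102 in T25 and 710 in T40. T40 was the high library of all 3, by 4.91-fold (4.12 to 5.90), 3.97-fold (3.44 to 4.61) and 5.05-fold (4.10 to 6.27) over T25 and by 2.68-, 2.74- and 4.27-fold over T4, and none of them was listed in T4/T25. The highest FPKM among these 3 in T40 was 21.7 (USP46), beside 36.2 for USP7, 38.7 for USP5 and 33.5 for USP14 in the same library. USP34, a large deubiquitinase, had 15 reads in T4, 42 in T25 and 73 in T40 in 1 unigene (c182634_g1_i2), which was lower in T4/T25. The other (c188444_g3_i1) had 22 reads in T4 and 74 in T40, and both were higher in T40/T4. A unigene named after the fungal deubiquitinase creB (c172318_g1_i3) had 240 reads in T4 and 665 in T40 and was likewise higher, by 2.62-fold (2.25 to 3.04).

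In T4/T25, calypso (c186729_g2_i3), the Polycomb deubiquitinase first described in flies, had 82 reads in T4 and 311 in T25 and was 4.94-fold lower (3.86 to 6.38). Otubain (c168132_g1_i1) had 740 reads in T4 and 1366 in T25, 2.40-fold lower (2.2 to 2.63). The only deubiquitinase listed as higher in the cold was ALG13 (c173906_g1_i5), with 44 reads in T4 and 8 in T25, for a ratio of 4.22 with an interval from 1.97 to 10.4. Neither calypso, otubain nor ALG13 had a value in T40.

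The 4 adaptors and other proteins, with NUB1 among them, were lower in every comparison that listed them. UBFD1 (c149241_g1_i1), a ubiquitin-domain protein, had 1900 reads in T4, 4337 in T25 and 1220 in T40, and the ubiquitin-like protein UBL7 (c183644_g3_i1) had 1989, 4049 and 1180. UBFD1 and UBL7 were 2.97-fold (2.82 to 3.14) and 2.65-fold lower (2.51 to 2.80) in T4/T25 and 4.90-fold (4.6 to 5.23) and 4.73-fold lower (4.43 to 5.05) in T40/T25. UFD1 (c181254_g1_i1), which hands ubiquitinated proteins to the p97 ATPase, had 2685 reads in T25 and 1432 in T40, 2.59-fold lower (2.42 to 2.76). UBLCP1 (c175839_g2_i1), a phosphatase of the proteasome, had 15 reads in T4, 59 in T25 and 5 in T40, 16.3-fold lower in T40/T25 with an interval from 6.59 to 52.0. UBL3 (c182743_g9_i1), a membrane-anchored ubiquitin-like protein, had 21 reads in T4 and 1 in T25 and was listed as higher in T4/T25, where its interval ran from 2.59 to 667.

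The level of a member and its direction in T40/T25 were set side by side with a limit of 20 FPKM in the higher library, a limit chosen after the values were seen. Of the 27 members at or above it, 7 were higher and 20 lower (25.9% higher), beside 63.0% higher among the 2050 listed unigenes with an NR hit at that level. Of the 39 members below it, 13 were higher and 26 lower (33.3%), beside 48.9% of the 4071 with an NR hit. In T4/T25, all 11 members at or above the limit were lower, beside 51.9% higher among the 769 with an NR hit. In T40/T4, 5 of the 8 members at or above it were higher (62.5%), close to the 67.4% of the 1691 with an NR hit. Below it, 20 of 29 were higher there (69.0%), beside 51.8% of the 3797 with an NR hit. SUMO3, UFM1, UFC1, SAE1, SINAT1 and USP46 were among the 7 higher ones in T40/T25.

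The downstream partners of these enzymes were counted from their descriptions. Proteasome subunits and their regulators numbered 38 listed unigenes, of which 1 was higher and 34 lower in T40/T25, 1 and 10 in T4/T25, and 2 and 9 in T40/T4, with a median log2 ratio of -1.73 in T40/T25. The p97 cofactor p47 (c184872_g2_i1) had 3225 reads in T4, 5595 in T25 and 623 in T40. Other partners of cullin ligases, such as BTB and kelch adaptors and DDB1, were divided, with 7 higher and 6 lower of 18 in T40/T25. DDB1 (c187250_g1_i1), the adaptor of cullin-4 ligases, had 750 reads in T4, 502 in T25 and 2523 in T40, and was higher at 40 °C where cullin-2 was lower. RING finger proteins without ubiquitin in their description, with the UFL1 homolog counted among them, were likewise divided, with 6 higher and 8 lower of 14.

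Markers of larval tissues also differed between the libraries. In T40/T25, listed midgut markers were 23 higher and 14 lower of 47 unigenes, fat body 4 and 4 of 13, cuticle 3 and 7 of 13, hemocyte 0 and 6 of 6, and silk gland 0 and 3 of 3. The fat body list is given without 2 fibrohexamerin unigenes, which its pattern also matched and which are counted under silk gland, a change made after the values were seen. Although 4 were higher and 4 lower, the fat body unigenes listed in T40/T25 had a summed level of 24804 CPM in T40 and 95488.5 in T25. In T4/T25, fat body markers were 9 higher and 1 lower, with a summed level of 127032 CPM in T4 and 30552 in T25. Muscle markers were 9 higher and 6 lower there, but their summed level was 649 CPM in T4 and 2016 in T25. Midgut markers were 14 higher and 16 lower, with a summed level of 987 CPM in T4 and 748 in T25. The part of tissue make-up in the values of the ubiquitin system was not tested.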

How the data were processed

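RNA-seq was made from 1 library of 5 pooled larvae at each of 3 temperatures, grouped by the temperature in the labels. Per the paper, the authors trimmed reads with Trimmomatic 0.38, checked them with FastQC 0.11.7, assembled the merged reads with Trinity, clustered contigs with CD-HIT, mapped the reads back with Bowtie 1.1.2 and quantified expression with RSEM. The paper names DESeq2 for normalization. The deposited counts are whole reads per unigene. In the deposited FPKM, the authors scaled these counts by length and depth. A deposited log2 column holds counts over an effective library size, which was recovered from it. The authors' own comparison columns (deposited p-values, fold changes and mean log CPM) were not used. Each table holds only unigenes with a P below 0.05 and a fold above 2. The text of the paper words its limit for differential expression more strictly, on a log2 scale, and listing was used here. Columns of other samples numbered 0, and some lines were not analysed here.

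Members were taken from the NR text and put into classes by their names. The members and lists were chosen with earlier results of these data known. Ratios of counts over effective sizes were computed with a pseudocount of 0 and a 95% exact Clopper-Pearson interval conditional on the summed counts, which was tested on simulated data. It covers counting error only. No test between temperatures was run, because each has 1 library. Named members were the 10 highest and 10 lowest per comparison whose higher library held 100 reads or more, the 2 highest and 2 lowest of each class with 50 or more, the 10 with the highest FPKM, the VHL, SINAT, cullin, E1, SUMO and NEDD8 members and those in all 3 tables. These were 50 members. Others named in the text were chosen after their values were seen. Some members are counted but not reported individually here. Alternatives were TMM scaling, scaling by trimmed reads, ratios of FPKM, a pseudocount of 1 or 10, minimum reads, a 4-fold limit, 1 unigene per description and a stricter annotation. The grouping by modifier and the split at 20 FPKM were chosen after seeing the data. TMM factors came from edgeR 4.0.16 in R 4.3.3, and all else was computed in Python 3.11.15 with pandas 2.3.3, numpy 2.4.6 and scipy 1.17.1, and drawn with matplotlib 3.10.9.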

Additional observations from a re-analysis of the deposited data

How the results depend on the processing

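No paired analysis was possible because each temperature has 1 library, so the shared replicate number pairs nothing, and no library could be left out. All 465 recomputed ratios of the 93 listed ratios of the 50 named members kept their direction. The listing favours this outcome, because every listed member ratio had a log2 of at least 1.25 in size. Scaling by trimmed reads moved every log2 ratio by -0.13 (T4/T25), 0.16 (T40/T25) or 0.28 (T40/T4). TMM scaling moved them by -0.09, 0.10 and -0.02 in the same order. These shifts were too small to reverse any listed ratio, so the kept directions are no check on the scaling. The size of the ratios did depend on it. Under scaling by trimmed reads, 36 of the 93 ratios fell outside their counting interval. Under ratios of FPKM 29 did so, under TMM scaling 19 and with a pseudocount of 10 only 1. The counts that moved by over 1.5 times did so under filters that keep fewer unigenes. With a minimum of 50 reads in the higher library, or of 10 in both, T4/T25 kept 5 members higher, 1 of the E1 and E2 enzymes and 0 deubiquitinases, and T40/T4 kept 1 of the E1 and E2 enzymes lower. With at least a 4-fold difference, T4/T25 kept 8 members lower, 3 E3 unigenes higher and 6 lower, and 1 deubiquitinase lower. T40/T25 then kept 12 members higher and 26 lower, 3 E1 and E2 enzymes higher and 1 lower, 18 E3 unigenes lower and 3 deubiquitinases lower. T40/T4 kept 7 members higher and 7 lower, 1 E1 or E2 enzyme in each direction, 4 E3 unigenes higher and 5 lower, and 2 deubiquitinases higher. The read minimums and the 4-fold limit were not applied to all listed unigenes, so these counts have no background share. At 20 FPKM or more in the higher library, T4/T25 had 0 higher and 11 lower, T40/T25 had 7 and 20, and T40/T4 had 5 and 3. Members with fewer than 50 reads in their higher library, such as RBBP6, UBL3, the E2Q-like unigene and most MYCBP2 unigenes, had wide intervals.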
